A study of Mus musculus with 10 samples.

Results

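The WNT genes are described here as 47 genes of the 55426 rows of the deposited expression table. They were taken by symbol and comprise every *Wnt* ligand gene, every frizzled receptor gene (*Fzd*), the secreted antagonists of the *Sfrp* and *Dkk* families, and 10 genes named one by one, namely *Lrp5*, *Lrp6*, *Ctnnb1*, *Axin1*, *Axin2*, *Tcf7*, *Tcf7l1*, *Tcf7l2*, *Lef1*, and *Lgr5*. By role there were 19 ligands, 10 receptors, 3 co-receptors, 8 secreted antagonists, and 7 intracellular mediators. *Lgr5*, which encodes a receptor for R-spondins, was only counted with the co-receptor genes *Lrp5* and *Lrp6*. Their mRNA was measured by RNA-Seq in the thoracic aorta, with 1 library per aorta, in 3 control mice and 3 Prdm16SMKO mice. Both groups carried the floxed allele of *Prdm16* (Prdm16f/f), and the control columns of the table are headed WT. In Prdm16SMKO mice the gene was deleted with SMMHC-CreERT2, a tamoxifen-dependent Cre recombinase under the smooth muscle myosin heavy chain promoter, induced with tamoxifen at 8 weeks of age. This transgene lies on the Y chromosome, so the knockouts are males on a C57BL/6J background. Whether the sequenced controls received tamoxifen, the age at harvest, and the hour at which these aortas were taken are not stated. Cells of the aorta other than smooth muscle cells keep the floxed gene intact. PRDM16 binding was measured by ChIP-Seq in another cell type, primary mouse vascular fibroblasts given lentivirus that carried Flag-tagged PRDM16 or no insert for 48 hours and selected with 2 µg/mL puromycin for 1 week, with 1 anti-Flag library each.

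WNT ligands are secreted lipid-modified glycoproteins that bind a frizzled receptor together with the co-receptors LRP5 or LRP6. In the canonical branch this stops the AXIN-containing destruction complex from degrading β-catenin, the product of *Ctnnb1*, which then enters the nucleus and activates genes with the transcription factors of the TCF/LEF family. Other branches act through planar polarity or calcium without β-catenin, and proteins of the SFRP, DKK, and WIF families hold the pathway back outside the cell. In arteries the pathway is known for its part in the growth, migration, and survival of smooth muscle cells.

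Expression is given as TPM, the abundance of a gene per unit of transcript length relative to all transcripts of that aorta, so TPM can be compared between genes. TPM keep no read counts, and the depth behind each value is unknown. Of the WNT genes, 29 had a mean TPM of at least 0.5 over the 6 aortas and were tested, and 18 were below it. The groups were compared by limma on log2(TPM + 0.1), a scale on which changes of low genes come out too small, and a gene is referred to as called where its Benjamini-Hochberg adjusted *P* value over the 15668 genes tested was under 0.05. The labels do not say that the mice of a group were of separate litters, and *P* values measure only the spread between these aortas.

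*Prdm16* itself had TPM of 56.1, 47.6, and 40.3 in control and 23.3, 33.3, and 23.4 in Prdm16SMKO aortas, a mean at 55.6% of the control mean without overlap between the groups (log2 fold change −0.85, SE 0.18, adjusted *P* = 0.072 by limma). The summed TPM of 7 smooth muscle markers, the defining markers of the medial layer, ran from 20700 to 24200 in control and from 13800 to 17900 in Prdm16SMKO aortas. The largest part of this sum in every aorta was *Acta2*, at 11024 to 12433 TPM in control and 6455 to 8230 in Prdm16SMKO aortas. Its log2 fold change was −0.63. *Myocd* was fitted higher (0.25), and the rest lower, from −0.47 (*Cnn1*) to −0.24 (*Myh11*). None of these smooth muscle markers was called by limma, 4 had an unadjusted *P* value under 0.05, and 4 were lower without overlap. The groups overlapped for *Myh11*, *Smtn*, and *Myocd*. Of the lists for other cell types, fibroblast markers summed to 926 to 1170 TPM in control and 788 to 1130 in Prdm16SMKO aortas, endothelial markers to 88.4 to 110 and 61.3 to 137, adipocyte markers to 111 to 544 and 128 to 433, macrophage markers to 32.7 to 48.5 and 25.4 to 43.7, skeletal muscle markers to 8.89 to 12.6 and 4.74 to 12.8, Schwann cell markers to 4.49 to 6.92 and 4.1 to 9.03, and mesothelial markers to 0.11 to 2.71 and 2.64 to 4.49, and none of these markers was called by limma, with 2 fibroblast and 2 mesothelial markers at an unadjusted *P* value under 0.05. Those 2 fibroblast markers went opposite ways, *Lum* higher (log2 fold change 0.47) and *Col1a1* lower (−0.54). *Pdgfra* (0.26), *Dpt* (0.13), and *Dcn* (0.17) were also fitted higher, and *Pi16* lower (−0.27). Both mesothelial markers, *Msln* and *Upk3b*, were fitted higher (1.88 and 2.02). The part of these marker shifts in the results below was not tested, and in bulk tissue fewer cells of a type and less RNA per cell cannot be told apart. A single gene, CT010467.1, held 20.2% to 28.2% of the TPM of an aorta and mitochondrial genes 14.7% to 26.5%, and on the deposited scale the tested genes had a median log2 fold change of −0.12. After rescaling of the aortas by median ratio to their geometric mean it was 0.0046.

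Of the 29 tested WNT genes, 2 were called, both lower in Prdm16SMKO aortas, the ligand gene *Wnt16* and the gene *Dkk3*. The latter was placed among the secreted antagonists by its family. Among all tested genes 1.07% were called, with 0.683% lower and 0.389% higher. No WNT gene was called higher by limma, and none had an unadjusted *P* value under 0.05 in that direction, against 7 in the lower direction. The share of all tested genes under this unadjusted threshold was not computed in either direction. These 7, and the counts at this threshold in the other paragraphs, are therefore not read as a result about the genes counted. Every Prdm16SMKO value was below every control value for 8 of the 29, where this held for 14.9% of all tested genes, and the reverse held for 0 of the 29, where it held for 4.08%. The 8 were *Wnt16*, *Dkk3*, *Fzd6*, *Wnt2*, *Fzd7*, *Tcf7l2*, *Lrp5*, and *Wnt11*. The fitted log2 fold change was below 0 for 20 of the 29 (69.0%), near the 67.9% of all tested genes. The median over the 29 was −0.16, and −0.04 after rescaling by median ratio.

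**Figure D1:**
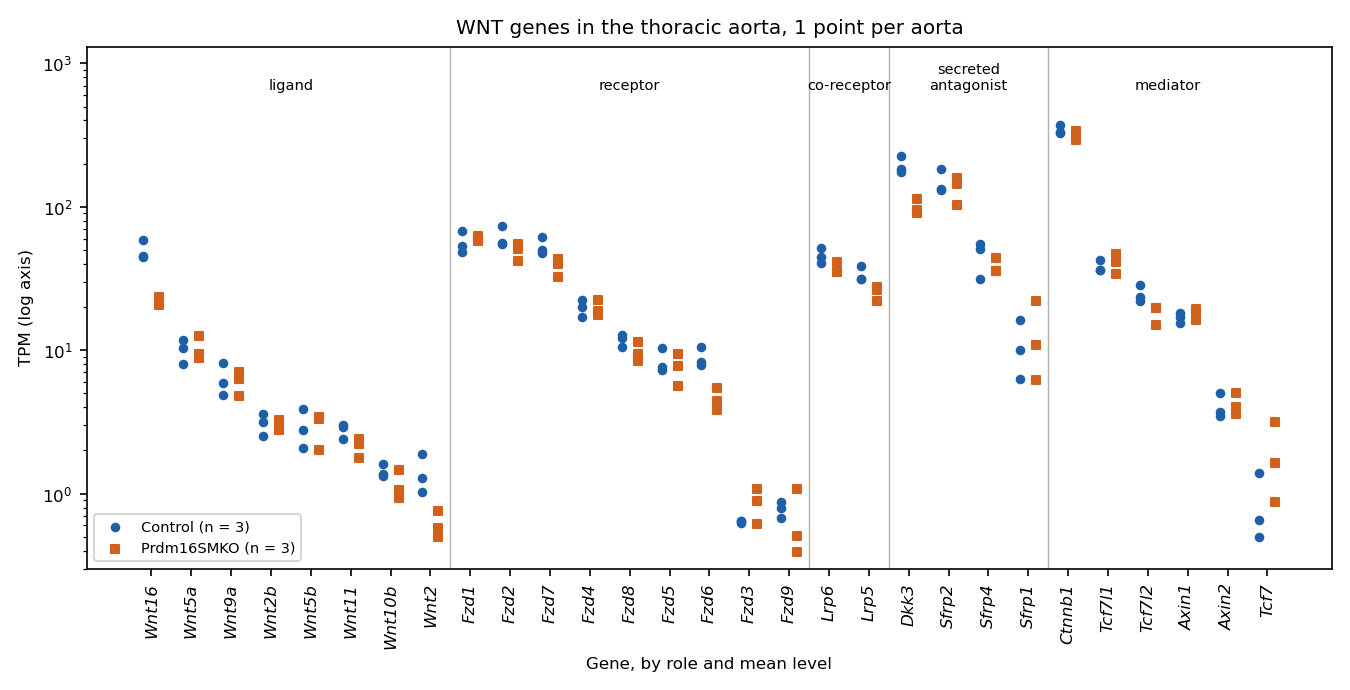
TPM of the 29 tested WNT genes in each aorta on a log axis, ordered by role and then by mean level; circles are the 3 control and squares the 3 Prdm16SMKO aortas. *Ctnnb1* is the highest gene in both groups, and the 2 groups stand clearly apart at *Wnt16* and *Dkk3*.

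The most abundant WNT ligand mRNA of the control aorta was *Wnt16* (ENSMUSG00000029671), which lies on the forward strand of chromosome 6 (RefSeq gene span 22288178 to 22298522, GRCm38.p6) and is best known for its role in cortical bone. Its TPM were 58.7, 45.4, and 44.6 in control and 21.0, 23.5, and 20.6 in Prdm16SMKO aortas. All 3 Prdm16SMKO values lay within a narrow band well below the lowest control value, and the mean of 21.7 ± 1.57 (SD, n = 3) was 43.8% of the control mean of 49.6 ± 7.88 (SD, n = 3). The log2 fold change was −1.18 (SE 0.14, 95% interval −1.5 to −0.86, adjusted *P* = 0.0079 by limma). It ran from −1.25 to −1.05 over 16 settings of the analysis, and *Wnt16* was called in 15 of them. *Wnt16* made up 65.0%, 64.6%, and 58.5% of the summed TPM of the 19 ligand genes in control and 42.7%, 47.1%, and 44.3% in Prdm16SMKO aortas. The other ligands together summed to 31.6, 24.9, and 31.6 TPM in control and 28.1, 26.4, and 26.0 TPM in Prdm16SMKO aortas, ranges that overlap. No PRDM16 peak of the fibroblasts had its centre within 2 kb of the start of *Wnt16*, and the nearest lay 67.9 kb away. The promoter is shown because it belongs to the called ligand gene, and it held no peak. The window runs from 120 bases before to 30 bases after the start of the curated transcript at 22288227, chr6:22288107-22288256 (forward strand, RefSeq, GRCm38.p6). The gene span given above begins earlier because it includes a predicted transcript. The window is printed with CG dinucleotides in capitals. It holds 4 of them and has a GC content of 56.7%.
*Wnt16* promoter: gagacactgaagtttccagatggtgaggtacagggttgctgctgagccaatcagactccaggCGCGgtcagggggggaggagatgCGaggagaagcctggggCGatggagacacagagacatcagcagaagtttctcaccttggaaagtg

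*Wnt2*, whose product is a canonical ligand of lung and vascular development, had low TPM of 1.29, 1.02, and 1.90 in control and 0.50, 0.58, and 0.76 in Prdm16SMKO aortas. The groups did not overlap and the Prdm16SMKO mean was 43.7% of the control mean, but the spread between aortas was wide at this level (log2 fold change −1.05, SE 0.41, adjusted *P* = 0.33 by limma). *Wnt11*, a ligand of the noncanonical branch, had TPM of 2.41, 3.01, and 2.90 in control and 2.22, 1.76, and 2.39 in Prdm16SMKO aortas (log2 fold change −0.37, adjusted *P* = 0.55 by limma). The highest Prdm16SMKO value of *Wnt11* was just below the lowest control value.

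*Wnt5a*, the main noncanonical ligand, was the second ligand by level, at 10.3, 7.97, and 11.9 TPM in control and 12.6, 8.82, and 9.34 TPM in Prdm16SMKO aortas. The groups overlapped throughout, and the log2 fold change of 0.03 had a 95% interval of −0.43 to 0.49 (adjusted *P* = 0.97 by limma), which holds no change of the size measured for *Wnt16*. The sign of this value changed when control aorta 2 or Prdm16SMKO aorta 1 was left out. *Wnt9a*, known for its role in joint formation, had TPM of 8.14, 4.91, and 5.93 in control and 4.82, 7.07, and 6.26 in Prdm16SMKO aortas, and those of *Wnt2b*, *Wnt5b*, and *Wnt10b* ran from 0.94 to 3.87 with overlapping groups. None of the ligands but *Wnt16* was called by limma, and 1 other, *Wnt2*, had an unadjusted *P* value under 0.05.

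The remaining 11 ligand genes were below the filter. *Wnt3a*, *Wnt7a*, and *Wnt8a* were listed at 0 in every aorta. *Wnt9b* was at 2.32 TPM in control aorta 3 and at 0.00 to 0.05 TPM in the other 5, so its mean rested on 1 library, and its RefSeq span overlaps that of *Wnt3*. The other 17 untested WNT genes, those of the other roles included, did not pass 0.71 TPM in any aorta. *Wnt4*, at a mean of 0.15 TPM, was the only WNT gene within 20 Mb of *Prdm16* on chromosome 4.

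The 10 frizzled genes encode the multipass membrane receptors of the WNT ligands, and 9 of them were tested. Their summed TPM were 260, 202, and 201 in control and 198, 205, and 169 in Prdm16SMKO aortas, and none was called by limma, whereas 2, *Fzd6* and *Fzd7*, had an unadjusted *P* value under 0.05. *Fzd6* (ENSMUSG00000022297; chromosome 15, forward strand, RefSeq gene span 39006149 to 39038192), a receptor known for planar polarity in skin and hair, had the largest fitted change of the receptors. Its TPM were 10.5, 7.83, and 8.23 in control and 5.44, 4.44, and 3.84 in Prdm16SMKO aortas. The groups did not overlap, and the Prdm16SMKO mean of 4.57 ± 0.808 (SD, n = 3) was 51.7% of the control mean of 8.84 ± 1.42 (SD, n = 3). The log2 fold change was −0.94 (SE 0.20, 95% interval −1.38 to −0.5, adjusted *P* = 0.068 by limma). *Fzd6* was called in 3 of 16 settings, namely after rescaling by median ratio (adjusted *P* = 0.043 by limma), after quantile normalization (0.0407), and without the most abundant gene and the mitochondrial genes (0.0401), against a range of 0.0401 to 0.206 over all of them.

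The most abundant receptor mRNAs were *Fzd1*, *Fzd2*, and *Fzd7*, with means over the 6 aortas of 58.1, 55.2, and 45.7 TPM. *Fzd7* was at 61.2, 50.1, and 47.3 TPM in control and 40.1, 43.1, and 32.3 TPM in Prdm16SMKO aortas, again without overlap but with a smaller difference (log2 fold change −0.46, SE 0.15, 95% interval −0.81 to −0.11, adjusted *P* = 0.25 by limma). *Fzd2* was at 73.3, 55.7, and 54.7 TPM in control and 50.5, 54.9, and 42.0 TPM in Prdm16SMKO aortas, and these ranges overlapped by a small margin (log2 fold change −0.31, adjusted *P* = 0.45 by limma). *Fzd1* overlapped fully, at 67.4, 48.7, and 53.0 TPM in control and 59.9, 62.2, and 57.3 TPM in Prdm16SMKO aortas (adjusted *P* = 0.82 by limma, log2 fold change 0.10), and the fitted value came to −0.00014 without control aorta 2. The share of *Fzd1* in the summed receptor TPM was 26.0%, 24.1%, and 26.3% in control and 30.3%, 30.4%, and 33.8% in Prdm16SMKO aortas.

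*Fzd4*, the receptor for norrin as well as for WNT ligands and a gene of retinal vessels, was at 22.4, 19.9, and 17.0 TPM in control and 22.3, 17.6, and 18.8 TPM in Prdm16SMKO aortas. The difference was near 0 (−0.01 on the log2 scale, adjusted *P* = 0.99 by limma), and its sign turned under each rescaling. *Fzd8* was at 12.8, 10.5, and 12.2 TPM against 9.42, 11.4, and 8.42 TPM, with overlapping groups (log2 fold change −0.29, adjusted *P* = 0.51 by limma). *Fzd5* overlapped as well, at 7.26 to 10.4 TPM in control and 5.62 to 9.46 TPM in Prdm16SMKO aortas. *Fzd3* and *Fzd9* were at most at 1.07 TPM in any aorta.

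The co-receptor genes *Lrp5* and *Lrp6* encode single-pass receptors of the LDL receptor family that carry the canonical signal. *Lrp5* was at 38.6, 31.2, and 31.4 TPM in control and 26.1, 27.5, and 22.1 TPM in Prdm16SMKO aortas, without overlap between the groups (log2 fold change −0.42, SE 0.14, adjusted *P* = 0.26 by limma). *Lrp6* was at 51.8, 40.4, and 44.7 TPM in control and 35.3, 41.2, and 35.0 TPM in Prdm16SMKO aortas, so that 1 Prdm16SMKO aorta exceeded the lowest control (log2 fold change −0.29, adjusted *P* = 0.43 by limma). *Lgr5*, which encodes a receptor for R-spondins and marks stem cells of the intestine, did not pass 0.20 TPM in any aorta.

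Among the antagonist genes of the *Sfrp* and *Dkk* families *Dkk3* (ENSMUSG00000030772; chromosome 7, reverse strand, RefSeq gene span 112116019 to 112159482) was the highest in the control aorta. It encodes the divergent member of the Dickkopf family, the other members of which bind LRP5 and LRP6. Whether its product holds back WNT signals in the aorta was not measured. Its TPM were 224, 176, and 184 in control and 95.6, 113, and 90.5 in Prdm16SMKO aortas. The groups stood well apart, and the Prdm16SMKO mean of 99.6 ± 11.5 (SD, n = 3) was 51.1% of the control mean of 195 ± 26.0 (SD, n = 3). The log2 fold change was −0.97 (SE 0.13, 95% interval −1.27 to −0.66, adjusted *P* = 0.012 by limma). *Dkk3* was called in 13 of 16 settings, and missed the threshold without control aorta 3 (adjusted *P* = 0.05 by limma), without Prdm16SMKO aorta 1 (0.0521), and without the mean-variance trend (0.1), with adjusted *P* values of 0.00277 to 0.1 over all settings. Its share of the summed TPM of the 8 antagonist genes was 46.7%, 50.9%, and 48.6% in control and 30.4%, 37.6%, and 36.3% in Prdm16SMKO aortas. No PRDM16 peak lay at its promoter, and the nearest was centred 28.9 kb downstream of the start, inside the span of the gene. *Dkk1*, *Dkk2*, and *Dkk4* were all below the filter.

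**Figure D2:**
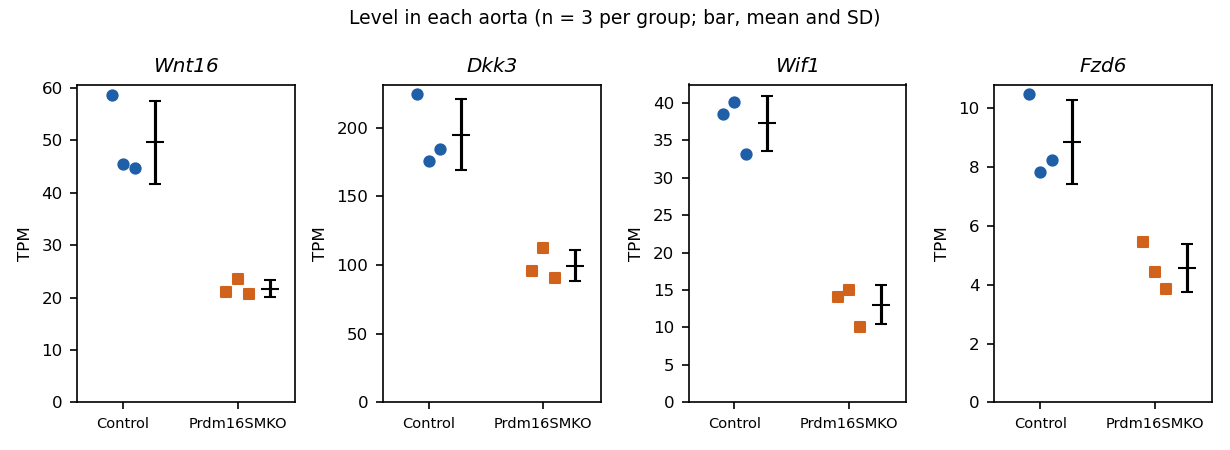
TPM of *Wnt16*, *Dkk3*, *Wif1*, and *Fzd6* in each of the 3 control and 3 Prdm16SMKO aortas, with the mean and SD as bars and each axis starting at 0. In all 4 genes every Prdm16SMKO aorta lies below every control aorta; *Fzd6* is the only one of the 4 that was not called.

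The secreted frizzled-related proteins carry a frizzled-like domain and bind WNT ligands as decoys. *Sfrp2* was the most abundant of them, at 184, 131, and 134 TPM in control and 160, 144, and 103 TPM in Prdm16SMKO aortas, with overlapping groups (log2 fold change −0.14, adjusted *P* = 0.80 by limma). *Sfrp4* was at 55.0, 31.6, and 50.5 TPM in control and 35.9, 36.0, and 43.9 TPM in Prdm16SMKO aortas (log2 fold change −0.21, adjusted *P* = 0.71 by limma), which lay within the control range. *Sfrp1* varied most between aortas of a group, at 16.3, 6.32, and 9.99 TPM in control and 22.1, 6.16, and 10.8 TPM in Prdm16SMKO aortas (log2 fold change 0.17, adjusted *P* = 0.92 by limma). None of the 3 was called by limma, and none had an unadjusted *P* value under 0.05.

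The mediators inside the cell were led by *Ctnnb1* (β-catenin), at 371, 327, and 330 TPM in control and 309, 338, and 292 TPM in Prdm16SMKO aortas. The groups overlapped, and the log2 fold change of −0.13 (95% interval −0.37 to 0.12, adjusted *P* = 0.66 by limma) was close to that of the median gene, and it came to 0.03 after quantile normalization. β-Catenin is controlled mainly as a protein, which was not measured. *Axin1*, the scaffold of the destruction complex, was at 18.1, 15.6, and 17.0 TPM in control and 18.4, 19.4, and 16.3 TPM in Prdm16SMKO aortas (log2 fold change 0.09, adjusted *P* = 0.82 by limma).

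*Axin2* is at once a scaffold of the same complex and a widely used target gene of canonical signalling. Its TPM were 3.70, 3.48, and 5.05 in control and 3.99, 5.04, and 3.57 in Prdm16SMKO aortas. The groups covered the same range, and the log2 fold change of 0.05 had a 95% interval of −0.46 to 0.55 (adjusted *P* = 0.96 by limma), a value whose sign changed in 3 of the 6 fits without 1 aorta. *Lef1* and *Lgr5*, other common targets of the canonical branch, were at most at 0.22 and 0.20 TPM, so no difference could be measured there.

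Of the TCF genes, *Tcf7l1*, often a repressor in the absence of β-catenin, was at 42.3, 36.3, and 36.2 TPM in control and 41.3, 46.8, and 34.1 TPM in Prdm16SMKO aortas (log2 fold change 0.08, adjusted *P* = 0.86 by limma; −0.02 without Prdm16SMKO aorta 2). *Tcf7l2* was lower in every Prdm16SMKO aorta, at 28.6, 23.4, and 21.9 TPM in control and 19.8, 19.7, and 15.1 TPM in Prdm16SMKO aortas (log2 fold change −0.44, adjusted *P* = 0.31 by limma). *Tcf7*, also a gene of T cells, had the highest fitted value of the WNT genes but overlapping groups, at 0.50, 0.66, and 1.40 TPM in control and 1.64, 0.87, and 3.15 TPM in Prdm16SMKO aortas (log2 fold change 1.0, 95% interval −0.21 to 2.21, adjusted *P* = 0.47 by limma). No mediator was called by limma, and 1 of the 6 tested, *Tcf7l2*, had an unadjusted *P* value under 0.05.

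**Figure D3:**
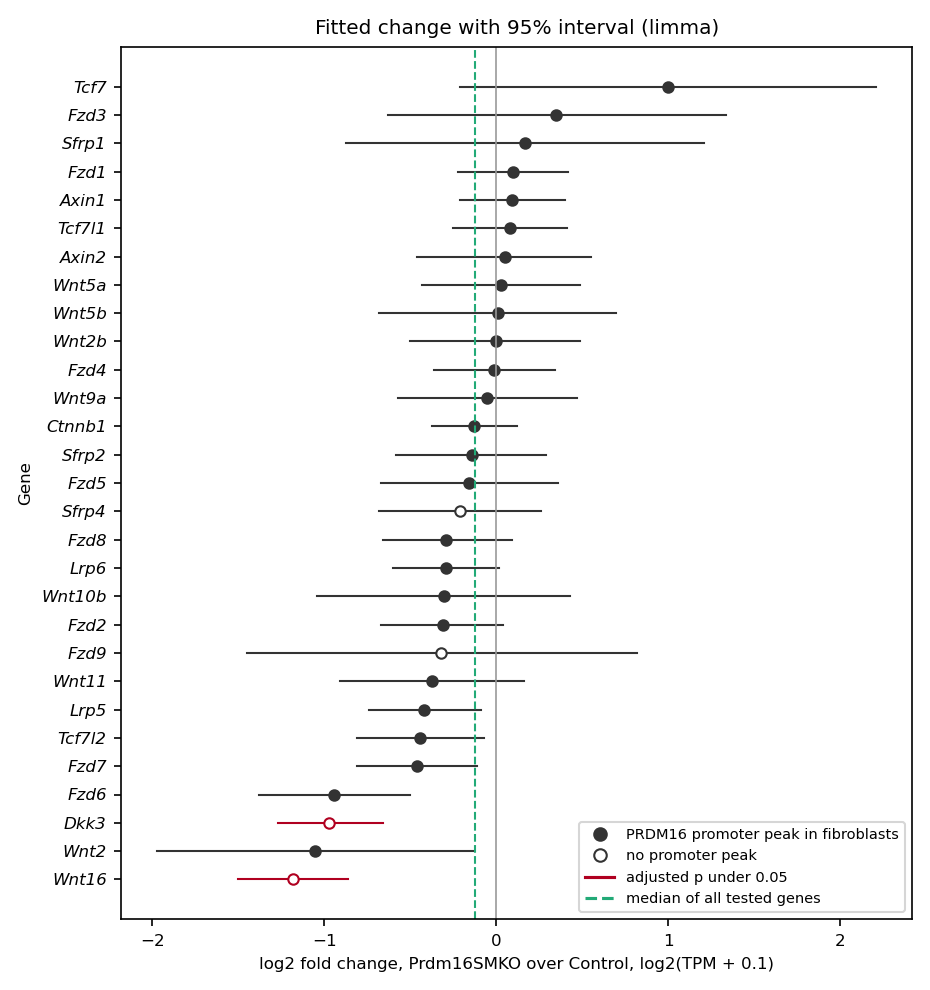
Log2 fold change of Prdm16SMKO over control aortas on log2(TPM + 0.1) with its 95% interval by limma for the 29 tested WNT genes; filled points have a PRDM16 promoter peak in fibroblasts, the 2 intervals in red are the called genes, and the dashed line is the median of all tested genes at −0.12. *Wnt16* and *Dkk3*, the called genes, are drawn with open points, and the other intervals mostly cross 0.

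A second list of 79 genes of the WNT pathway that the symbols above do not cover (secretion and ligand control, receptor control, cytoplasmic signalling, planar polarity, nuclear cofactors, and target genes) was examined in the same way. Of these, 67 were tested, 1 was called lower and 0 were called higher by limma, with 8 lower and 1 higher at an unadjusted *P* value under 0.05. The groups did not overlap for 9 lower genes (13.4%) and 1 higher gene (1.49%), against 14.9% and 4.08% of all tested genes, and 1.49% were called lower against 0.683%, which is a single gene. The median log2 fold change was −0.07. The called gene was *Wif1* (ENSMUSG00000020218; chromosome 10, forward strand, RefSeq gene span 121034004 to 121100642), which encodes WNT inhibitory factor 1, a secreted protein that binds WNT ligands. Its TPM were 38.5, 40.0, and 33.1 in control and 14.1, 15.1, and 10.1 in Prdm16SMKO aortas. The Prdm16SMKO mean of 13.1 ± 2.65 (SD, n = 3) was 35.1% of the control mean of 37.2 ± 3.65 (SD, n = 3), a log2 fold change of −1.52 (SE 0.17, 95% interval −1.92 to −1.13, adjusted *P* = 0.0063 by limma), and the nearest PRDM16 peak lay 55.2 kb from its start. *Wif1* was called in 15 of 16 settings. *Sost*, which encodes sclerostin, an antagonist that binds LRP5 and LRP6, was named after its values were seen, for its abundance. It was at 773, 716, and 705 TPM in control and 520, 611, and 501 TPM in Prdm16SMKO aortas, without overlap (log2 fold change −0.43, SE 0.11, adjusted *P* = 0.14 by limma). *Wnt16*, *Dkk3*, and *Wif1* lie on 3 different chromosomes. None of their tested neighbours within 250 kb was called by limma (0 of 3, 0 of 2, and 0 of 7). With 1.07% of all tested genes called, so few neighbours cannot show whether a change reaches beyond these genes. The neighbours had fitted log2 fold changes of −0.34 to 0.0, −0.55 to −0.18, and −1.27 to −0.05. Of them 1, 1, and 2 had an unadjusted *P* value under 0.05.

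In the fibroblast ChIP-Seq, a promoter peak was taken as a MACS2 peak whose centre lay within 2 kb of the start of a curated RefSeq transcript. The fold enrichment given for a peak is the authors' ratio at its summit, and 1 library supports each value, so none has a replicate. The PRDM16 library had 11271 peaks and the vector library 67. A promoter peak was present at 31 of the 47 WNT genes (66.0%), where 26.0% of all genes with a curated start had one, and the vector library had 0 at these genes. Among the WNT genes tested in the aorta the count was 25 of 29 (86.2%), where 43.3% of all tested genes had one. Of the 18 below the filter, 6 had a peak (*Wnt1*, *Wnt6*, *Wnt7b*, *Dkk2*, *Lef1*, and *Lgr5*). In the other pathway list 46 of 79 genes had one (58.2%). The WNT genes had a mean of 1.32 annotated starts and all genes 1.21. The share depended on the window, and with a promoter that reaches 1 kb upstream and only 100 bp into the gene it was 11 genes (23.4%), where 9.11% of all genes had a peak. With only peaks of a MACS2 q value of at most 0.01 it was 29 genes (61.7%), where 25.3% of all genes had a peak. The only *Axin1* peak and both *Sfrp2* peaks (−log10 q of 1.88 each) did not pass this cut.

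By role and over all peaks of the library, a promoter peak was present at 10 of 19 ligand genes, 8 of 10 receptor genes, all 3 genes counted as co-receptors, all 7 mediator genes, and 3 of 8 antagonist genes (*Sfrp1*, *Sfrp2*, and *Dkk2*). The 4 tested WNT genes without one were *Wnt16*, *Dkk3*, *Fzd9*, and *Sfrp4*, with log2 fold changes of −1.18 to −0.21, and both called genes were among them. The 25 with a peak had a median log2 fold change of −0.13 (range, −1.05 to 1.0), none was called by limma, and 5 had an unadjusted *P* value under 0.05. Among all tested genes 1.07% were called, so none of 25 is near that share. The contrast with the 4 genes rests on 2 called genes and is not read as a link between peak and change. Of these 25, *Fzd6* was called in 3 of 16 settings. Of all called genes with a curated start, 39.6% had a promoter peak. A peak in fibroblasts that make Flag-tagged PRDM16 does not show whether PRDM16 is bound at the gene in the smooth muscle of these aortas, which was not measured.

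**Figure D4:**
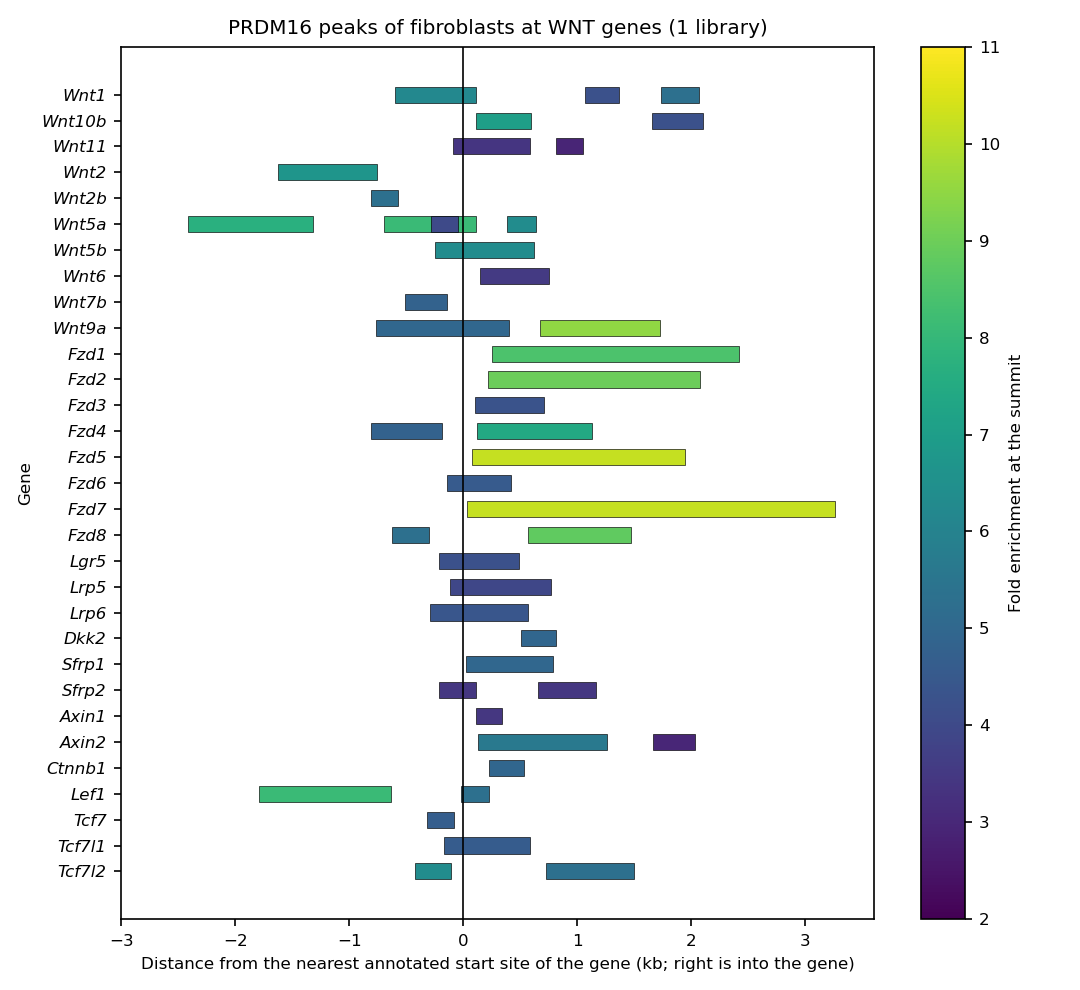
PRDM16 peaks of the fibroblast library at the 31 WNT genes with a promoter peak, drawn to scale as distance in kb from the nearest annotated start (right is into the gene) and coloured by fold enrichment at the summit. The widest peak, of 3227 bp at *Fzd7*, and the other peaks of 1860 bp or more are all at frizzled genes.

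The frizzled genes held the broadest of these peaks and the 2 highest. Their 10 promoter peaks had a median length of 958 bp and a median fold enrichment of 7.94, and 5 of them (50.0%) were at least 1 kb long. The 45 promoter peaks of all WNT genes had a median length of 624 bp and a median enrichment of 4.96-fold (range, 2.94 to 10.2), with 10 (22.2%) at least 1 kb long, and the 6873 promoter peaks of the library had medians of 436 bp and 5.27, with 9.89% at least 1 kb long. *Fzd7* and *Fzd5* had the highest fold enrichment, 10.2 at each, at or above that of 97.2% of the peaks of the library. The *Fzd7* peak spanned 3227 bp (chr1:59482179-59485405) and the *Fzd5* peak 1861 bp (chr1:64735810-64737670). *Fzd2* followed with 8.99 over 1860 bp, *Fzd8* with 8.79 over 901 bp, *Fzd1* with 8.44 over 2160 bp, and *Fzd4* with 7.44 over 1015 bp. The peaks of *Fzd6* (4.54 over 563 bp) and *Fzd3* (4.29 over 608 bp) were below the WNT medians of 4.96 and 624 bp. *Fzd1*, *Fzd2*, *Fzd7*, and *Fzd8* each consist of a single exon, and their 5 peaks had a median length of 1860 bp, against 604.5 bp for the 40 peaks of the WNT genes with more exons. At *Fzd9* and *Fzd10*, which are also single-exon genes, no promoter peak was present.

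The summits at *Fzd7* and *Fzd5* lay inside the coding exon, 2121 bp and 1242 bp downstream of the start. The reference around both is shown because these were the highest promoter peaks of the WNT genes. Each window holds the summit and 50 bases on either side, on the strand of the gene (RefSeq, GRCm38.p6), at chr1:59484218-59484318 (forward) for *Fzd7* and chr1:64736458-64736558 (reverse) for *Fzd5*. Capitals mark CG dinucleotides, of which each window holds 8, and the GC content is 58.4% at *Fzd7* and 69.3% at *Fzd5*.
*Fzd7* summit: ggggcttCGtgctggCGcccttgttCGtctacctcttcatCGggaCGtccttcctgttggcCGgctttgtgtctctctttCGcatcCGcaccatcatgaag
*Fzd5* summit: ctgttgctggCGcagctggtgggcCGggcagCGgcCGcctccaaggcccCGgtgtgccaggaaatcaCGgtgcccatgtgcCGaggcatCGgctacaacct

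The highest peak at a ligand gene was at *Wnt9a*, with a fold enrichment of 9.49 over 1049 bp (chr11:59307603-59308651), and it is shown for comparison with the frizzled summits. Its summit lay in an intron, 1282 bp downstream of the start. The window at chr11:59308162-59308262 (forward strand, RefSeq, GRCm38.p6), drawn in the same way, holds 2 CG dinucleotides and has a GC content of 63.4%.
*Wnt9a* summit: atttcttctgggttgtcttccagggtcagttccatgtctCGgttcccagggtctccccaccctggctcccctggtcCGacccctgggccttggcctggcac

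*Wnt5a* had 4 promoter peaks around its annotated starts, the most of any WNT gene, with fold enrichments of 4.03 to 8.09. *Wnt1* had 3, with fold enrichments of 4.22 to 6.2, although its mean in the aorta was 0.0283 TPM. *Wnt2* had a peak of 6.68 centred at −1192 bp from its start, and *Wnt10b* had peaks of 7.03 and 4.22. The peaks of *Wnt2b* (5.27), *Wnt5b* (6.33), *Wnt6* (3.53), *Wnt7b* (4.81), and *Wnt11* (3.39 and 2.94) were in the lower or middle part of the range. In all, 11 of the 31 WNT genes with a promoter peak had at least 2 (35.5%), against 15.6% of all genes with a promoter peak.

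At the co-receptor genes the fold enrichment was 3.93 for *Lrp5* and 4.4 for *Lrp6*, and it was 4.22 for *Lgr5*. Among the mediators *Lef1* had the highest peak, at 8.09, although its mRNA was hardly detected in the aorta. *Tcf7l2* had peaks of 6.33 and 5.27, *Axin2* of 5.63 (1124 bp) and 2.97, *Ctnnb1* of 4.92, *Tcf7* of 4.67, *Tcf7l1* of 4.59, and *Axin1* of 3.41. The antagonist genes had peaks of 4.96 (*Sfrp1*), 4.92 (*Dkk2*), and 3.41 (both peaks of *Sfrp2*). Across the 45 peaks, 15 summits lay in introns, 11 in coding exons, 9 in 5′ untranslated exons, and 10 outside the curated transcripts, and the peaks of *Fzd4*, *Tcf7l2*, and *Wnt7b* also lay within 2 kb of the start of another gene (*Tmem135*, Gm31734, and AU022754). In all, 71.1% of the peaks were centred downstream of the nearest curated start of any gene, where 79.5% of all promoter peaks were. The median GC content was 65.2% for the peaks of the WNT genes and 68.1% for all promoter peaks.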

How the data were processed

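RNA-Seq of the thoracic aorta (3 control and 3 Prdm16SMKO mice, poly(A)-selected libraries) and ChIP-Seq peak lists of primary vascular fibroblasts (1 anti-Flag library each for PRDM16 and vector) were used. Samples were grouped by the titles of their labels. The TPM deposited by the authors have 1 column per aorta and were used as deposited; the submitters' processing notes name cutadapt 2.3, STAR 2.7.8a, and RSEM 1.3.3. TPM sum to the same total in each aorta, so the sequencing depth is unknown, no counting interval was computed, and no count model was applied. For the ChIP-Seq libraries the authors mapped reads with Bowtie2 2.3.4.1 and called peaks in each library with MACS2; which library served as its control is not stated. The deposited peak lists hold a score, the ratio of enrichment (fold) at each summit, and −log10 p and −log10 q values, of which the fold enrichment and −log10 q were used and the score was not. The IgG libraries were not analysed here.

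Groups were compared by limma 3.58.1 in R 4.3.3 (lmFit, then eBayes, trend on) on log2(TPM + 0.1) without covariates, over genes whose mean was 0.5 TPM or more. With 3 aortas in each group the smallest 2-sided exact permutation *P* value is 0.1, so no such test was used. Replicate numbers were not used as a block. Named with values are genes that were called, genes without overlap between the groups and a log2 fold change of at least 0.5 in size, genes at a mean of 10 TPM or more, genes with a promoter peak (by their peak values), and *Axin2*, *Lef1*, *Lgr5*, and *Ctnnb1*; of the other pathway genes, those called and those without overlap at a log2 fold change of at least 1. The TPM of *Sost*, *Wnt1*, *Wnt2b*, *Wnt4*, *Wnt5b*, *Wnt9a*, *Wnt9b*, *Wnt10b*, *Wnt11*, *Fzd3*, *Fzd5*, *Fzd9*, and *Tcf7* were given beyond this rule after their values were seen. The WNT genes and all lists were chosen with earlier results of these data known.

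The pseudocount was also set to 1 and 0.01, the filter to a mean of 1 TPM or none, and the other alternatives were median ratio rescaling, quantile normalization, a block for replicate number, eBayes with no trend, leaving out each aorta, promoter windows of 1 kb, of 5 kb, from −1 kb to 100 bp, and of any overlap with 2 kb, placement by summit, and peaks with q of at most 0.01 or 0.001. Rescaling without the most abundant gene and the mitochondrial genes was chosen after seeing the data. Gene positions and sequences are RefSeq's for GRCm38.p6, the build to which the ChIP-Seq reads were mapped, and 31 of the 47 WNT genes matched the table of promoter sequences. Tables and plots were made in Python 3.11.15 with matplotlib 3.10.9, numpy 2.4.6, and pandas 2.3.3, and sequences were read with samtools 1.23.1 and pysam 0.24.0.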

Additional observations from a re-analysis of the deposited data

How the results depend on the processing

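The number of WNT genes called lower was 2 and became 0 without limma's mean-variance trend (adjusted *P* = 0.0627 for *Wnt16* and 0.1 for *Dkk3* by limma) and 1 to 2 with each aorta left out; it was 3, with *Fzd6*, under each of the 3 rescalings. For the other pathway genes the number called lower was 1, which became 0 without the trend (adjusted *P* = 0.0595 for *Wif1* by limma) and 2 without the most abundant gene and the mitochondrial genes, where *Sost* joined. The number called higher was 0 in both lists in all 16 settings. Of all genes 168 were called, 110 without a filter, 413 after median ratio rescaling, 392 after quantile normalization, 48 without the trend, 370 without the most abundant and mitochondrial genes, and 91 to 141 with each aorta left out. Lower genes were 63.7% of the calls as deposited, 51.6% after median ratio rescaling, 51.8% after quantile normalization, and 50.0% without the trend. The cause of these shifts was not tested. Same-numbered aortas had correlations of −0.0246, −0.07, and −0.00896 in their deviations from the group means. These values cannot show whether the aortas were paired by design, which the labels do not say. With the number as a block 184 genes were called, 76 higher and 108 lower. The same 2 WNT genes and *Wif1* remained called.

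Log2 fold changes near 0 changed sign in some settings. With each aorta left out in turn, *Wnt5a* ran from −0.13 to 0.16 (−0.12 without control aorta 2), *Axin2* from −0.09 to 0.21 (−0.01 and −0.06 without control aortas 1 and 2), *Tcf7l1* from −0.02 to 0.20, *Fzd1* from −0.00014 to 0.23, *Fzd4* from −0.12 to 0.08 (0.06 and 0.01 without Prdm16SMKO aortas 2 and 3), *Sfrp1* from −0.31 to 0.61 (−0.16 without control aorta 2), and *Sfrp2* from −0.27 to 0.04 (0.02 without control aorta 1). *Fzd4* also came to 0.11 after median ratio rescaling and after quantile normalization and to 0.09 without the most abundant and mitochondrial genes, and after quantile normalization *Sfrp2* came to 0.01 and *Ctnnb1* to 0.03. None of these was called in any setting. The number of WNT genes with a promoter peak was 31, 11 with a window from 1 kb upstream to 100 bp downstream, where most peak centres lie further into the gene, and 26 to 33 under the other 6 definitions. The depth of the RNA-Seq is unknown and limits what can be said of genes with low TPM. For the ChIP-Seq the paper gives an average number of reads per sample but not the depth of each library. This limits what can be said of genes without a peak.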
